A study of Mus musculus with 25 samples.

Results

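The esophagus of mouse pups homozygous for the L30F change of the transcription factor NRF2 (gene Nfe2l2) was compared with that of wild-type pups across all genes measured, at 7 to 10 days of age. The 6 libraries compared, of 25 in the series, were 3 from homozygotes (genotype NRF2L30F/L30F::K5Cre) and 3 from wild-type pups (genotype Wild-Type), and they were chosen by these labels and not by any measured value. In the homozygotes both Nfe2l2 alleles carry a cancer-derived change of leucine to phenylalanine at codon 30, within the DLGex motif, which is expressed after recombination by K5Cre, a constitutive Cre recombinase active in squamous cells. The labels do not say whether the wild-type pups carried Cre. Total RNA of esophagus tissue was sequenced as directional libraries, so RNA of recombined squamous cells is mixed with that of every other cell present. The libraries are numbered 1 to 3 as in the labels and their values are listed in that order. Whether each library is a different pup is not stated, and p-values therefore rest on library-to-library spread, which may be technical.

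NRF2 drives genes for glutathione synthesis and for the detoxification of electrophiles, and it pairs with small MAF proteins on antioxidant response elements. KEAP1 binds NRF2 through its DLG and ETGE motifs and marks it for degradation, and changes in the DLG motif are known to let NRF2 escape. The mouse esophagus is lined by a stratified squamous epithelium in which basal cells divide and suprabasal cells flatten and cornify, on a layer of connective tissue surrounded by muscle that in mice is largely striated. Because the RNA came from bulk tissue, fewer cells of a type and less RNA per cell cannot be told apart in any of the results below.

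Values are normalised read counts, which are reads divided by the authors' size factor of each library, and each log2 fold change is homozygote over wild type on the log2(value + 1) scale with its standard error (SE), which understates the change of genes with low values. A gene was called when its adjusted p from limma was under 0.05, with n = 3 libraries per genotype and with 3 KEAP1-deficient pup libraries (KEAP1flox/flox::K5Cre) in the fit. The KEAP1-deficient libraries served only to estimate the spread and to filter genes by count. The 6 libraries held 18791944 to 19489250 reads each over 21106 listed genes.

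Several libraries stood apart from the others of their genotype. Homozygote library 1 held thyroid RNA, with 30814 normalised counts of thyroglobulin (Tg) against 24.6 and 16.4 in the other homozygotes and 11.98 to 30.2 in wild type. Albumin (Alb), a liver gene, had 2443, 178.4 and 146.4 counts in homozygotes, against 6129.9, 5516 and 28916 in wild type, so wild-type library 3 held the most liver RNA. Homozygote library 3 had 47281 counts of Xist and 0 of the Y-linked gene Ddx3y, while the other 5 libraries had 542.1 to 1281 of Ddx3y. The summed counts of 10 smooth muscle markers were 42388, 79474 and 36907 in homozygote libraries 1, 2 and 3, against 77225, 77022 and 77808 in wild type, so only homozygote library 2 was at the wild-type level. The 10 esophageal squamous markers summed to 271435, 242550 and 231046 in the homozygotes, against 158821, 140797 and 135155 in wild type, and the 10 fibroblast markers to 233939, 201215 and 167721 in the homozygotes, against 471516, 509596 and 480358 in wild type. Both sums separated the genotypes without overlap, but each leaned on few genes. The keratin Krt13 made up most of the squamous sum in the homozygotes. The collagens Col1a1, Col1a2 and Col3a1 made up most of the fibroblast sum in both genotypes. Of the 10 squamous markers 8 were called higher and 1, Krt4, lower. Sums of 10 macrophage markers did not shift by as much, with 5360, 5831 and 5531 in homozygotes, against 5289, 5099 and 5279 in wild type. The 8 glandular stomach markers summed to 187, 11 and 138 in homozygotes, against 353, 409 and 50 in wild type, and none was called. One of them, Muc5ac, had 54.8, 0.986 and 1.02 counts in homozygotes, against 284.0, 301.5 and 32.5 in wild type. Muc5ac was thus most of the sum in wild type, while other stomach markers were most of it in the homozygotes. Atp4b, a defining gene of acid-secreting stomach, was at 0 in all 6 libraries.

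**Figure D1:**
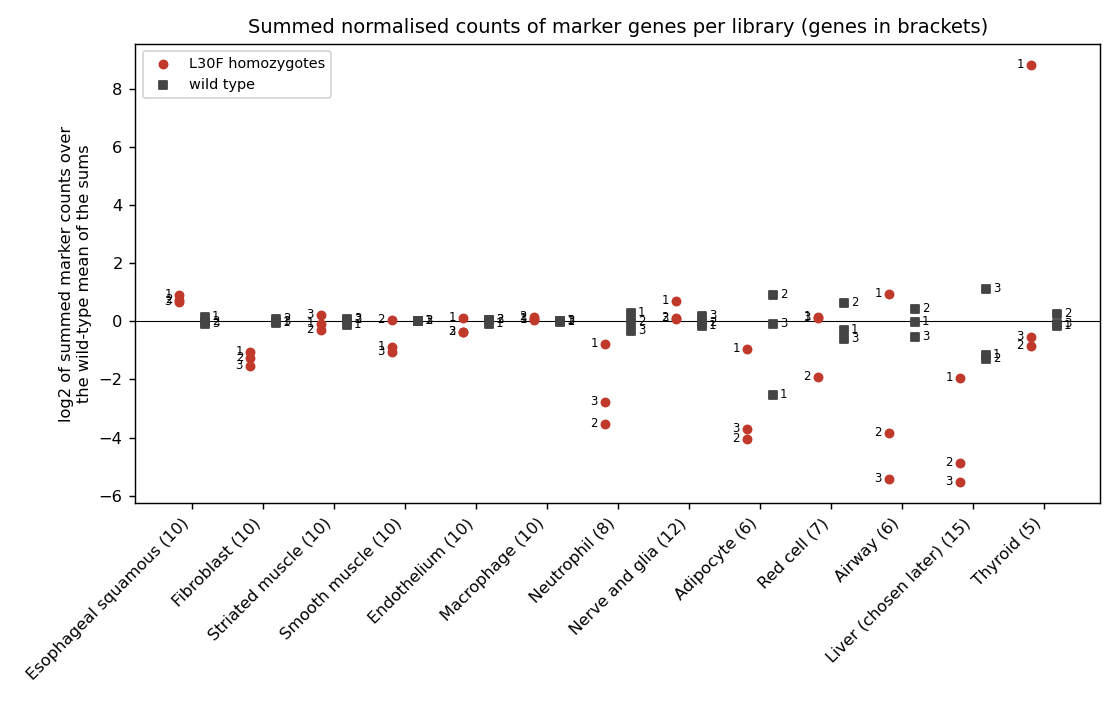
Summed normalised counts of marker genes in each library, as log2 of the ratio to the mean of the wild-type sums (y axis), for 13 cell types or organs (x axis, number of genes in brackets). Red circles are L30F homozygotes and dark squares wild type, numbered by library. Fibroblast sums lie below 0 in all 3 homozygotes, thyroid genes stand out in homozygote library 1 alone, and liver genes, a list chosen after the values were seen, are highest in wild-type library 3.

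The L30F esophagus differed from wild type in a large part of its transcriptome. Of 21007 genes tested, 8225 (39.2%) were called, 4632 higher (22.0%) and 3593 lower (17.1%). These shares are the background for every count of called list members below. The rises were larger than the falls: 1946 genes (9.26%) rose and 1349 (6.42%) fell at least 2-fold, 920 rose at least 4-fold and 409 fell at least 4-fold, and 280 rose and 52 fell at least 16-fold. The homozygotes and wild type did not overlap in 4571 of the genes called higher and 3532 of those called lower, and over all genes tested the groups did not overlap in 27.0% (homozygotes above) and 25.5% (homozygotes below). Nearly all called genes thus lacked overlap, so a lack of overlap given below for called genes adds little to the call. The 50 called genes that gained most counts held 10.8, 10.7 and 10.7% of all normalised counts in homozygote libraries 1, 2 and 3, against 2.69, 2.61 and 2.53% in wild type.

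The balance of rises and falls depended on the scaling. The summed normalised counts were 19240750, 19210110 and 19403170 in the homozygotes, against 16729128, 16818214 and 16411182 in wild type. When each library was instead scaled to its total of listed reads (total scaling), 3270 genes were called higher and 6433 lower, so that 33.7% of calls were higher, compared with 56.3% under the authors' size factors. The median log2 fold change of all genes was -0.24 under that scaling and -0.03 under the size factors. Counts under total scaling are given below for lists in which a count of calls moved by over 1.5 times.

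**Figure D2:**
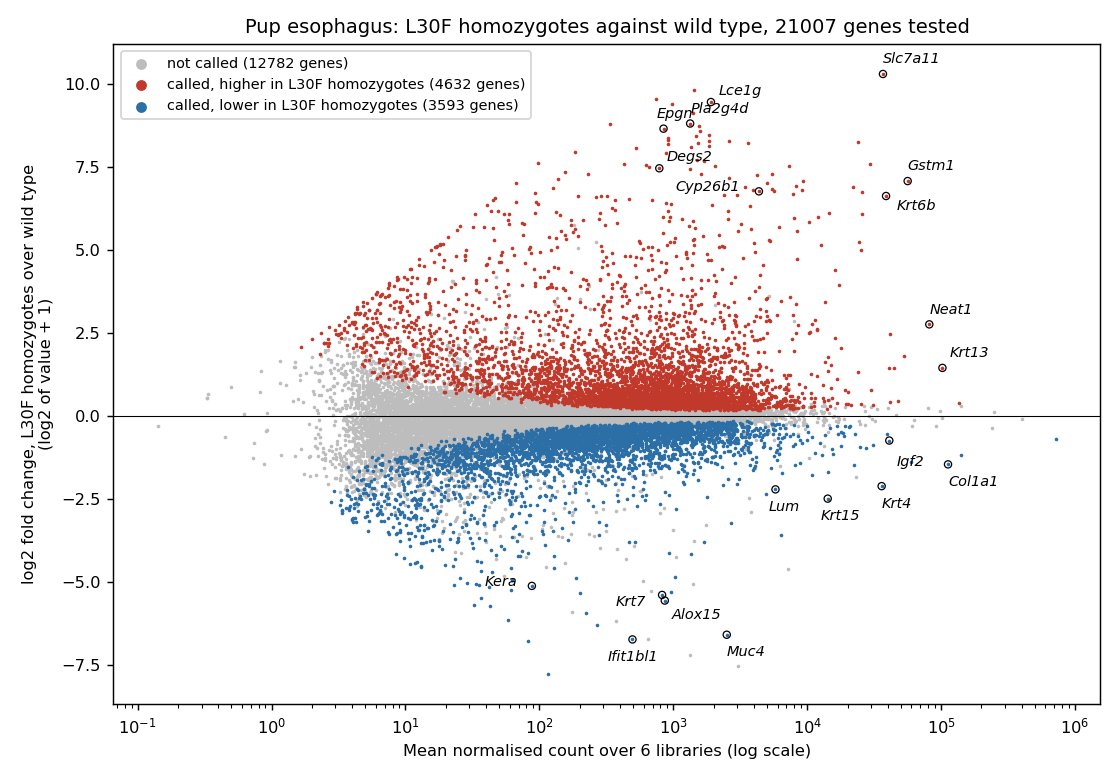
Each point is 1 of 21007 genes tested, with its mean normalised count over the 6 libraries on a log x axis and its log2 fold change, L30F homozygotes over wild type, on the y axis. Red genes were called higher, blue genes lower and grey genes were not called. Rises reach a log2 fold change of 10.29 (Slc7a11), while the named gene with the largest fall, Ifit1bl1, lies at -6.73.

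Nfe2l2 itself had 1601, 1291 and 2029.9 counts in homozygotes, against 1261, 1338 and 1305 in wild type (log2 fold change 0.31, SE 0.17, adjusted p = 0.17), and Keap1 had 1104, 958.1 and 1424 in homozygotes, against 1094, 1060.2 and 1053 in wild type (0.10, SE 0.13, adjusted p = 0.56). Neither gene was called and their groups overlapped, although Nfe2l2 was called without homozygote library 2 (log2 fold change 0.47, adjusted p = 0.041). The substitution itself cannot be seen in counts per gene, so NRF2 activity was checked through its targets. Loss of KEAP1 would also free NRF2, so this check cannot tell the L30F label from the KEAP1-deficient one. Nqo1, the quinone reductase used as the standard readout of NRF2 activity, had 10500.4, 9777 and 9688 counts in homozygotes, against 72.1, 80.9 and 77.0 in wild type, a 129-fold rise (SE 0.08 on the log2 scale, adjusted p = 1e-11). With gene models and symbols shared by several loci left out, the 10 genes with the smallest adjusted p all rose. They were the cystine importer Slc7a11, Nqo1, the glutathione transferase Gstm1, the leukotriene and alkenal reductase Ptgr1, Srxn1 and Gclc. The others were the keratins Krt6b and Krt16, the aldose reductase-like Akr1b8 and the connexin Gjb2. Gjb2, which forms gap junctions between keratinocytes, had 25498, 23221 and 24916 counts in homozygotes, against 685.5, 641.2 and 747.8 in wild type (35.5-fold, adjusted p = 4e-11).

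Promoter sequences were searched for the core of the antioxidant response element, TGACNNNGC, in which N is any base (degenerate form). They were also searched for TGACTCAGC (full form), a case of equal length with TCA as the free bases. The full form thereby also holds the AP-1 site TGACTCA. RefSeq promoter windows (GRCm38.p6, 250 bases before to 50 after the start site, both strands) were matched by symbol for 13530 of 20940 tested genes. The degenerate form was found in 20.2% of 193 genes that rose at least 16-fold and in 15.3% of 7715 genes not called. It was in 18.7% of genes that rose 4- to 16-fold, in 18.5% of 699 that rose 2- to 4-fold and in 406 of 2031 that rose by less, so its share did not follow the size of the rise. The full form was in 5 of those 193 genes (2.59%) and in 8 of 411 that rose 4- to 16-fold (1.95%). It was in 4 of 699 that rose 2- to 4-fold (0.572%) and in 17 of 2031 that rose by less (0.837%). Its share therefore did not climb at each step of the rise, and the counts are small. It was in 32 genes not called (0.415%) and in 2 of 891 that fell at least 2-fold (0.224%). Over all 13530 matched genes the shares were 16.3% for the degenerate and 0.547% for the full form. Counted per promoter and not per gene, over all 32851 promoters including those of unmatched genes, they were 12.4% and 0.454%. A match describes the letters only and shows no binding.

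Among genes that rose at least 4-fold and averaged at least 100 counts in the homozygotes, 10 carried the full form before the start site. The stretches around it are shown for 6 of them, from peroxisomal and peroxide metabolism (Acox2, Prdx1), metal binding (Mt2), the cell surface (Procr), the cornified envelope (Sprr1a) and Htatip2, because they show the same letters in promoters of unlike genes. Bases run 5′ to 3′ along the gene, and capitals mark TGACTCAGC or its reverse complement GCTGAGTCA.
Acox2: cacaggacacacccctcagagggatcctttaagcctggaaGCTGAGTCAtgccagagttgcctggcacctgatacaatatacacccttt
Prdx1: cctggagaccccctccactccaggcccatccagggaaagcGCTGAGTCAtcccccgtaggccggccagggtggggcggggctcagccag
Htatip2: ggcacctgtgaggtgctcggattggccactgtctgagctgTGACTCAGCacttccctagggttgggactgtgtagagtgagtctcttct
Mt2: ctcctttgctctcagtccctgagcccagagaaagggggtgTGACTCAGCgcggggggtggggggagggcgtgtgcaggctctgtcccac
Procr: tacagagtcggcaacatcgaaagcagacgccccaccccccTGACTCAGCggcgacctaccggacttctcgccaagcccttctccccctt
Sprr1a: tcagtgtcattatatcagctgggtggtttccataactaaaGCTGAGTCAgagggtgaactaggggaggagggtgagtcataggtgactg
The other 4 were Lpin3, Tmem40, Tmem54 and Tmprss11f. The stretches lie at chr14:8258984-8259072 (minus strand, Acox2), chr4:116685426-116685514 (plus strand, Prdx1), chr7:49759423-49759511 (plus strand, Htatip2), chr8:94172499-94172587 (plus strand, Mt2), chr2:155751023-155751111 (plus strand, Procr) and chr3:92485981-92486069 (minus strand, Sprr1a), all on GRCm38.p6. In counts, Prdx1, a peroxiredoxin, had 31162, 28922 and 37817 in homozygotes, against 2119, 2035 and 2217 in wild type, and Procr, the endothelial protein C receptor, had 1789, 1402 and 1490.1 in homozygotes, against 58.8, 61.4 and 66.7 in wild type. Acox2, a peroxisomal oxidase of branched fatty acids and bile acid intermediates, had 1804, 1491 and 1592 in homozygotes, against 24.0, 27.6 and 64.2 in wild type. All 6 genes shown were higher in every homozygote library than in every wild-type library, by 5.66-fold (Sprr1a) to 45.1-fold (Acox2).

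**Figure D3:**
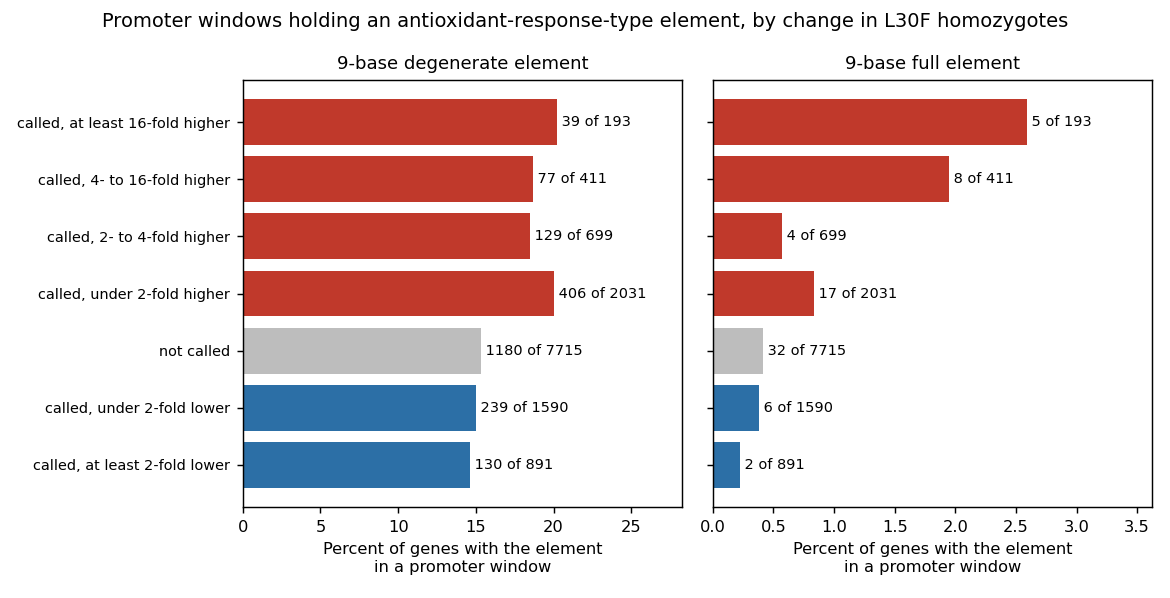
Share of genes with an antioxidant-response-type element in a RefSeq promoter window (x axis, percent) by change in L30F homozygotes (y axis), for the degenerate form with 3 free bases (left) and the full form (right). Numbers beside the bars are genes with the element of all genes in the class. The full form is in 5 of 193 genes that rose at least 16-fold and in 32 of 7715 not called.

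Beyond the textbook antioxidant enzymes, the largest rises included genes of the outer squamous layers, a phospholipase, a growth factor and a metal-binding protein. The 15 largest were ranked among genes that averaged at least 50 counts in homozygotes and did not overlap between groups. Gene models, pseudogenes and symbols shared by several loci were left out of the ranking. They held Slc7a11, Pla2g4d, Ly6m, Epgn, Mt4, Ces1h and 2 small proline-rich genes (Sprr2b, Sprr2e). The other 7 were late cornified envelope genes (Lce1e, Lce1f, Lce1g, Lce1h, Lce1j, Lce1k and Lce3d). Epgn encodes epigen, a ligand of the EGF receptor, and had 1538, 1367 and 2156 counts in homozygotes, against 2.67, 2.67 and 4.28 in wild type (log2 fold change 8.64, SE 0.23, adjusted p = 3.4e-09). Pla2g4d, a cytosolic phospholipase A2 known from human psoriatic skin, had 2595, 2919.5 and 2474 in homozygotes, against 0.890, 4.45 and 19.7 in wild type (8.80, SE 0.78, adjusted p = 0.00013). Mt4, the metallothionein of stratified squamous epithelium, had 3292, 3603 and 4061 in homozygotes, against 7.12, 5.34 and 21.4 in wild type (8.44, SE 0.41, adjusted p = 2.3e-06). Wild-type library 3 was the highest of its group for all 3 genes, and no wild-type library came near the homozygotes. All 4 metallothioneins rose, by 10.7-fold (Mt1) to 347-fold (Mt4). Reads of Lce1, Sprr2 and Ces1 genes can be shared between near-identical copies, so the values of single members are uncertain.

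Measured as counts gained and not as folds, the list was different. Neat1, the long noncoding RNA that builds paraspeckles in the nucleus, gained most, with 139254, 160394 and 126673 counts in homozygotes, against 22682, 21335 and 19157 in wild type (6.73-fold, adjusted p = 5.9e-06). The protease inhibitor Slpi had 65782, 53154 and 56349 in homozygotes, against 98.8, 416.2 and 664.9 in wild type, and the fatty acid carrier Fabp5 had 46663, 45522 and 53431 in homozygotes, against 1651, 1226 and 1723 in wild type. The other 9 of the 12 largest gains were Gstm1, Krt13, Krt6b, Slc7a11, the omega-class transferase Gsto1, Krt6a, Gclc, the retinol dehydrogenase Adh7 and the aldehyde dehydrogenase Aldh3a1. None of these 12 genes overlapped between the groups, which held for 4571 of all 4632 genes called higher.

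**Figure D4:**
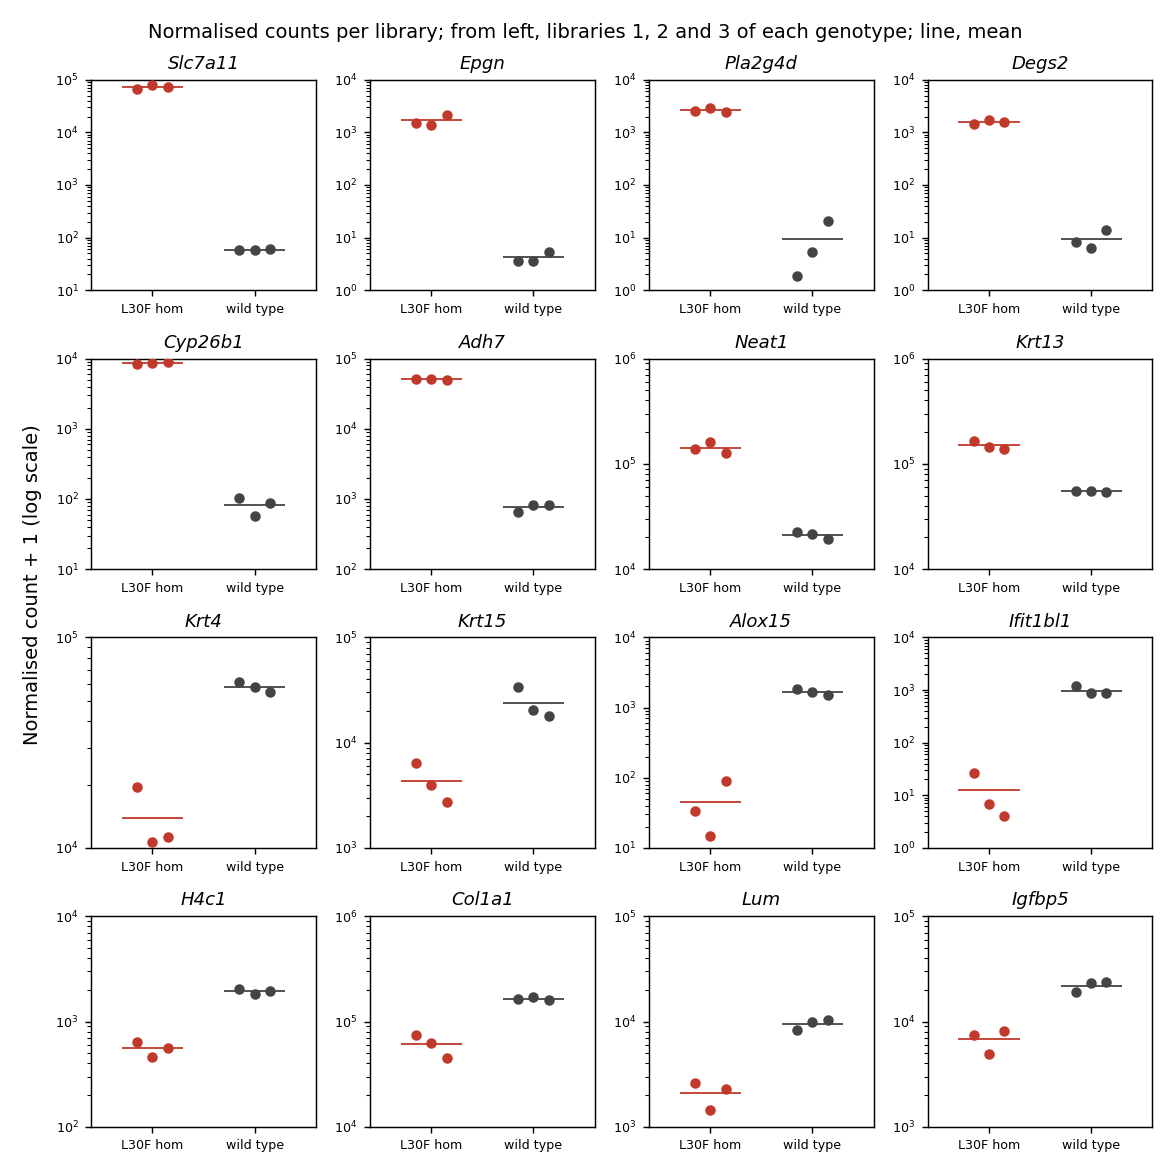
Normalised counts plus 1 in each library (y axes, log scale) for 16 genes, with L30F homozygotes (red) left of wild type (dark); points from left are libraries 1, 2 and 3 and lines are means. The first 8 genes are higher and the last 8 lower in every homozygote library than in every wild-type library.

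Metabolic genes changed in both directions. Of 16 folate and serine one-carbon genes 8 rose and 2 fell. The formyl-tetrahydrofolate dehydrogenases, which make NADPH in mitochondria and cytosol, were the largest of these: Aldh1l2 had 1483, 1584 and 1854 counts in homozygotes, against 227.9, 258.8 and 267.0 in wild type, and Aldh1l1 averaged 613.5 ± 16.1 in homozygotes and 114.6 ± 49.0 in wild type (SD, n = 3 each). Phgdh, the first enzyme of serine synthesis, rose 2.54-fold (adjusted p = 1.4e-05). Among 12 transsulfuration and sulfide genes 4 rose and 3 fell, while 4 rose and 5 fell under total scaling, and the risers Sqor and Ethe1 belong to mitochondrial sulfide oxidation. The largest rise in that list was in Gclm, which encodes the modifier subunit of the ligase of glutathione synthesis and is not itself a transsulfuration gene (13.6-fold, adjusted p = 1.3e-09). Sqor, the sulfide quinone oxidoreductase, had 3792, 3758 and 3573 in homozygotes, against 297.3, 287.3 and 320.0 in wild type (log2 fold change 3.62, SE 0.07, adjusted p = 1.9e-10). Purine and pyrimidine synthesis was below the background, with 2 of 16 genes higher and 2 lower (4 lower without wild-type library 1), and 0 higher and 10 lower under total scaling. Among 23 selenoprotein genes 8 rose and 4 fell, while 6 rose and 9 fell under total scaling. The rises were led by the epithelial glutathione peroxidase Gpx2 (109.6-fold) and thioredoxin reductase Txnrd1 (7.82-fold). Dio3, which inactivates thyroid hormone, averaged 13.8 ± 6.36 counts in homozygotes and 66.3 ± 7.89 in wild type (-2.29, adjusted p = 0.0023).

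Amino acid transport rose at several importers in addition to Slc7a11, with 13 of 27 transporter genes higher and 3 lower. Slc1a4, which carries neutral amino acids including serine, had 7115, 6983 and 6171 counts in homozygotes, against 746.9, 466.1 and 544.2 in wild type. The glutamate and cysteine transporter Slc1a1 rose 22.4-fold, Slc3a2, the heavy chain that Slc7a11 needs at the membrane, 7.36-fold, and the glycine transporter Slc6a9 5.91-fold. In the opposite direction Slc6a14, a broad amino acid importer of mucosal surfaces, had 75.7, 65.1 and 58.4 in homozygotes, against 1212, 958.8 and 720.5 in wild type (-3.82, SE 0.32, adjusted p = 1.9e-05). Over all 309 solute carriers 103 rose and 36 fell, while 78 rose and 72 fell under total scaling. The sodium-dependent amino acid transporter Slc6a19, known from gut and kidney, had 660.5, 598.3 and 451.6 counts in homozygotes, against 0, 9.78 and 17.1 in wild type, and the steroid sulfate carrier Slc10a6 rose 38.2-fold. Among 17 genes of glycolysis and lactate, a list chosen after the values were seen, 10 rose and 3 fell. The glucose transporter Slc2a1 rose 7.53-fold and hexokinase Hk1 5.87-fold, while lactate dehydrogenase Ldha had 5416, 4625 and 5566 in homozygotes, against 6093, 6019 and 6767 in wild type (-0.28, SE 0.09, adjusted p = 0.029). The Ldha call was lost without homozygote library 2 (adjusted p = 0.11) and without wild-type library 3 (adjusted p = 0.11), and 1 gene of that list fell in each of these fits. The groups did not overlap in any of the transporter or glycolysis genes whose values are listed.

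Phase I and phase II enzyme families beyond the classic targets split by family. Of 15 carboxylesterases 10 rose and 1 fell. Ces1h had 6483, 4087 and 4997 counts in homozygotes, against 10.7, 21.3 and 16.3 in wild type, and Ces2c had 165.4, 144.9 and 144.4 in homozygotes, against 1.78, 1.78 and 1.71 in wild type. Of 25 glutathione transferases 19 rose and 2 fell (4 without homozygote library 1 and 4 under total scaling). Gsta1 rose 182-fold, and Gstt1, a theta-class member, was lower (-1.34, SE 0.22, adjusted p = 0.00095). Cytochromes P450 were divided: of 59 genes 14 rose and 11 fell, while 13 rose and 18 fell under total scaling. The falls numbered 3 when wild-type library 3, which held most liver RNA, was left out. Cyp2b19, an arachidonate epoxygenase of keratinocytes, rose 43.2-fold. Cyp2f2, an enzyme known from airway club cells, had 1939, 946.3 and 472.1 in homozygotes, against 13896, 10714 and 9952 in wild type (-3.58, SE 0.51, adjusted p = 0.0013). The 6 airway markers summed to far fewer counts, 248, 9 and 3 in homozygotes, against 125, 172 and 87 in wild type. The cells that gave the Cyp2f2 RNA were not tested. Of 44 ABC transporters 20 rose and 3 fell, while 18 rose and 9 fell under total scaling, and 5 fell without homozygote library 1 or KEAP1-deficient library 3. Abcc4 rose 39.3-fold and Abcc3 30.3-fold, both exporters of conjugates, while Abcc6 was lower (-2.02, SE 0.59, adjusted p = 0.022). The Abcc6 call was lost without homozygote library 2, homozygote library 3 or wild-type library 3 (adjusted p = 0.072, 0.057 and 0.081).

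Most genes of skin barrier lipids rose. Of 29 ceramide and barrier lipid genes 24 rose and the other 5 were not called, with a median log2 fold change of 2.70, beside -0.03 over all genes tested, and 2 fell under total scaling. Degs2, which makes phytoceramides, had 1453, 1692 and 1545 counts in homozygotes, against 7.12, 5.34 and 12.8 in wild type (7.45, SE 0.25, adjusted p = 2.4e-08). The lipid transporter of lamellar granules, Abca12, had 14954, 16161 and 15240.5 in homozygotes, against 81.9, 145.9 and 282.4 in wild type. Smpd3, a sphingomyelinase, had 5939, 6279 and 5504 in homozygotes, against 85.5, 143.2 and 150.6 in wild type. In wild type Abca12 was lowest in library 1 and highest in library 3, and no wild-type library reached the homozygote range. Aloxe3, the epidermal lipoxygenase, and Elovl4, which builds very long acyl chains, rose 60.8-fold and 37.1-fold. In the group IV phospholipases A2, a family added after the values were seen, 5 of 6 members rose, from 4.07-fold (Pla2g4a) to 445-fold (Pla2g4d). In the fatty acid oxidation and PPAR target list 13 of 32 genes rose and 1 fell, while 9 rose and 5 fell under total scaling and 3 fell without homozygote library 1 or wild-type library 1. The largest change among its called members was in Ppard, a fatty acid receptor abundant in keratinocytes, with 5406, 5073 and 4735 in homozygotes, against 706.8, 742.7 and 746.1 in wild type (2.79, SE 0.07, adjusted p = 1.2e-09).

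Genes of the cornified surface rose, including ones that mark epidermis more than esophagus. All 21 late cornified envelope genes and all 11 kallikreins were called higher, with medians of 7.70 and 3.32. Of 15 epidermal identity genes 12 rose and the other 3 were not called. Corneodesmosin (Cdsn) had 15120.5, 15204 and 16648 counts in homozygotes, against 146.0, 242.8 and 444.1 in wild type, hornerin (Hrnr) 12945, 15149 and 8145 in homozygotes, against 78.3, 263.3 and 549.3 in wild type, and loricrin (Lor) 17228, 15234 and 16687 in homozygotes, against 128.2, 439.4 and 717.1 in wild type. Each of these was lowest in wild-type library 1 and highest in wild-type library 3 among the wild type. The epidermal keratin Krt10 had 426.4, 401.2 and 438.3 in homozygotes, against 272.4, 449.2 and 620.3 in wild type, and was not called (-0.01, SE 0.27, adjusted p = 0.99). Klk6 rose 59.8-fold and Klk7, a protease that cuts corneodesmosomes, 24.0-fold. Of 17 clade B serpins 12 rose, led by Serpinb12 at 120.4-fold. Of 15 small proline-rich genes 12 rose and 1 fell, which was Sprr2a3. It had 400.5, 210.9 and 63.5 in homozygotes, against 785.2, 779.1 and 774.4 in wild type (-2.15, SE 0.59, adjusted p = 0.023), with the caution on near-identical copies above. The Sprr2a3 call was lost without wild-type library 1, 2 or 3 (adjusted p = 0.054, 0.061 and 0.06).

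Keratins moved in both directions. Of 32 keratin genes 17 rose and 6 fell. Krt13 and Krt4, the type I and type II keratins that pair in suprabasal esophagus, moved apart: Krt13 had 165167, 145369 and 138263 counts in homozygotes, against 55304, 55044 and 54467 in wild type (1.44, SE 0.08, adjusted p = 5.2e-07). Krt4 had 19584, 10711 and 11327 in homozygotes, against 61419, 57869 and 54846 in wild type (-2.12, SE 0.20, adjusted p = 3.6e-05). Among the basal keratins Krt14 rose 6.74-fold, while Krt15 had 6438, 3971 and 2706 in homozygotes, against 33882, 20293 and 18056 in wild type (-2.50, SE 0.38, adjusted p = 0.0016). Krt84, a hair and nail keratin, had 72.7, 173.5 and 106.5 in homozygotes, against 3.56, 0 and 0.856 in wild type. Krt4 and Krt15 were highest in library 1 within each genotype, and no keratin listed here overlapped between the groups.

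Squamous transcription factors mostly rose: 15 of 27 were higher and 4 lower, while 13 rose and 6 fell under total scaling. Dlx3, a homeobox factor of late epidermal differentiation, had 629.6, 487.9 and 500.8 counts in homozygotes, against 25.8, 23.1 and 46.2 in wild type, and Prdm1, a transcriptional repressor, had 2391, 2600.2 and 2397 in homozygotes, against 251.0, 229.5 and 249.9 in wild type. Elf3, an ETS factor of epithelia, had 243.1, 85.8 and 116.8 in homozygotes, against 1228, 785.3 and 752.1 in wild type (-2.73, SE 0.37, adjusted p = 0.00054). Elf3 was lower in every homozygote library, with library 1 the highest of them. The foregut factor Sox2 was not called (0.24, SE 0.12, adjusted p = 0.14), and was called without wild-type library 1 (0.35, adjusted p = 0.032). Of 17 connexins 5 rose and 4 fell, with 2 falls without homozygote library 2 or wild-type library 2. The rises included Gjb2, Gjb6 (17.5-fold), Gja1 (10.7-fold) and Gjb5 (2.31-fold), which are connexins of keratinocytes.

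Retinoid metabolism, which makes, stores and clears retinoic acid, changed in both directions, with 14 of 27 genes higher and 7 lower. Cyp26b1, which degrades retinoic acid, had 8373, 8555 and 8970.4 counts in homozygotes, against 100.6, 56.9 and 85.6 in wild type (6.76, SE 0.18, adjusted p = 5.8e-09). Adh7, which oxidises retinol, had 51733, 50780.5 and 49669.9 in homozygotes, against 647.2, 829.8 and 809.4 in wild type (6.06, SE 0.11, adjusted p = 2e-10). The homozygote libraries differed little from each other for both genes. The retinol dehydrogenases Sdr16c5 and Rdh12 rose 49.0-fold and 21.7-fold and the retinaldehyde dehydrogenase Aldh1a1 8.81-fold. Rarb, a retinoic acid receptor and classic retinoic acid target, had 81.7, 115.3 and 106.5 in homozygotes, against 373.0, 372.7 and 344.0 in wild type (-1.85, SE 0.18, adjusted p = 2.3e-05). Lrat, which esterifies retinol for storage, and Stra6, a receptor for retinol uptake, were lower too (-2.33, SE 0.47, adjusted p = 0.0029 and -2.34, SE 0.68, adjusted p = 0.02). The Stra6 call was lost without homozygote library 3 (adjusted p = 0.068), wild-type library 1 (0.061) or wild-type library 3 (0.058), and with an offset of 0.1 in place of 1 (0.165). In the eicosanoid list 8 of 23 genes rose and 4 fell, while 6 rose and 7 fell under total scaling. Ptgs2, the inducible cyclooxygenase, had 1501, 678.1 and 2329 in homozygotes, against 60.53, 70.3 and 86.4 in wild type, with homozygote library 3 the highest and library 2 the lowest. Alox15, which oxygenates arachidonic and linoleic acid, had 32.9, 13.8 and 88.1 in homozygotes, against 1840.1, 1693 and 1515 in wild type (-5.56, SE 0.67, adjusted p = 0.0004). Alox15 was among the 15 largest falls, a ranking that required no overlap, and Ptgs2 did not overlap between the groups either.

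Genes of protein turnover mostly rose, by smaller amounts than the barrier genes. Of 38 proteasome genes 31 rose and 1 fell, 22 rose and 1 fell under total scaling, and the median log2 fold change was 0.51. The core subunit Psma7 had 1846, 1841 and 1813 counts in homozygotes, against 779.8, 725.8 and 737.6 in wild type (2.45-fold, adjusted p = 1.2e-07), and the assembly chaperone Psmd5 rose 2.16-fold. Psmb10, an immunoproteasome subunit, averaged 48.4 ± 20.2 in homozygotes and 107.3 ± 8.64 in wild type (-1.21, SE 0.28, adjusted p = 0.0063). Of 27 autophagy genes 15 rose and the other 12 were not called, while 11 rose and 3 fell under total scaling, led by Gabarapl2 (2.66-fold) and Wipi2 (2.15-fold). The cargo receptor Sqstm1 rose 1.80-fold (adjusted p = 3.9e-06). Of 23 lysosomal genes 14 rose and 3 fell, while 9 rose and 5 fell under total scaling. The lysosomal protease cathepsin D (Ctsd) had 28830.3, 27482 and 24805 in homozygotes, against 5248, 5399 and 5424 in wild type. Cytosolic ribosomal proteins were higher in 31 of 82 cases, with a median of 0.23. The number of rises was 16 without wild-type library 3, 17 without wild-type library 2, 19 without homozygote library 2 and 51 without wild-type library 1, and 5 rose and 5 fell under total scaling. Heat shock and folding genes rose in 12 of 26 cases and fell in 2, while 7 rose and 5 fell under total scaling.

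**Figure D5:**
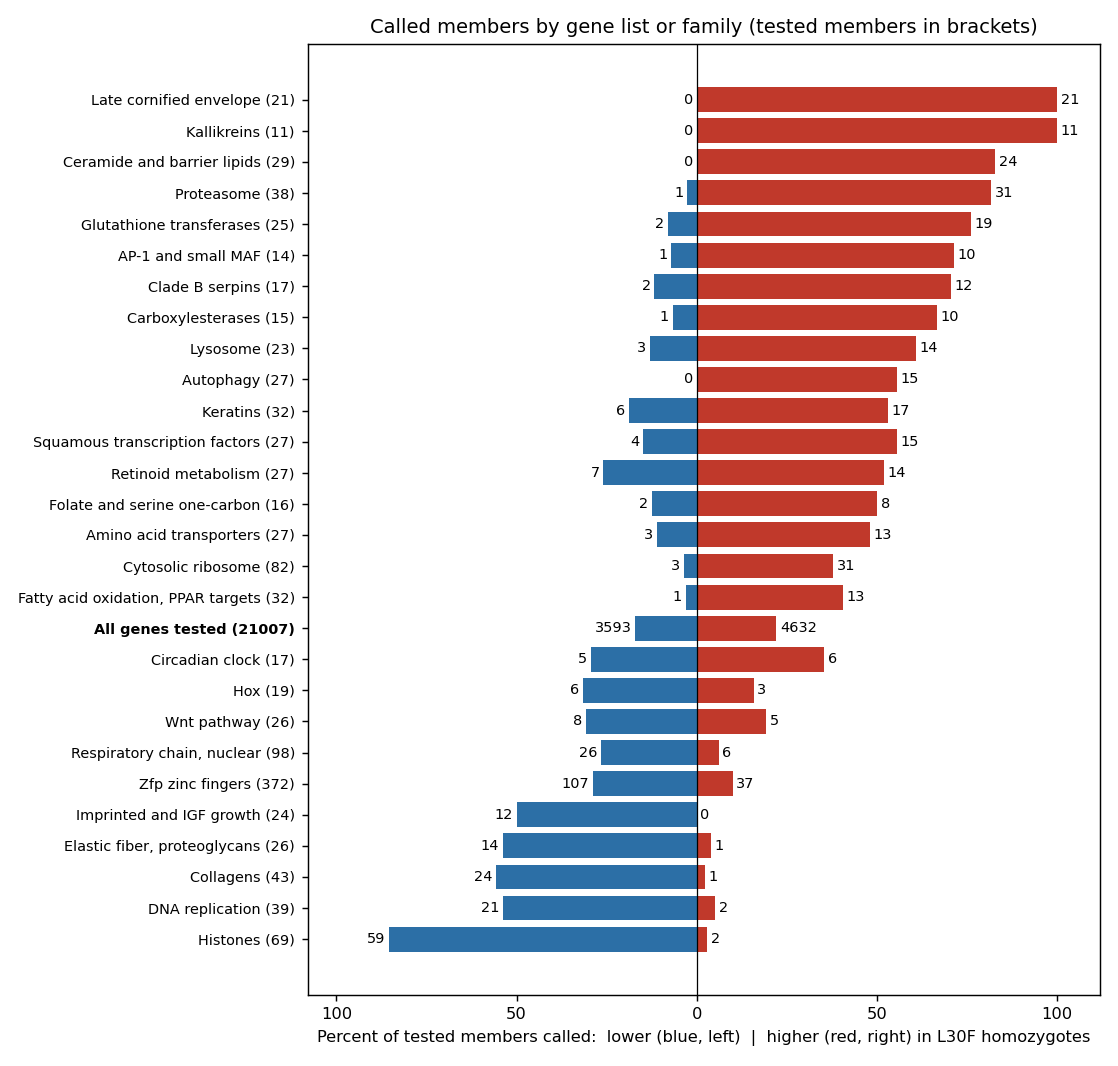
Share of tested members called higher (red, right) or lower (blue, left) in L30F homozygotes (x axis, percent) for 27 gene lists or families and for all genes tested (bold); numbers at the bars are genes and numbers in brackets are tested members. All 21 late cornified envelope genes and all 11 kallikreins were higher, and 59 of 69 histone genes were lower.

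Several ligand and AP-1 genes rose. Of 9 EGF receptor family ligands, a list added after the values were seen, 6 rose and the other 3 were not called. Epiregulin (Ereg) had 2538, 3093 and 2628 counts in homozygotes, against 67.7, 81.8 and 81.3 in wild type, while amphiregulin (Areg) had 70.7, 49.3 and 80.9 in homozygotes, against 62.3, 45.4 and 44.5 in wild type, and was not called (0.38, SE 0.23, adjusted p = 0.22). Of 14 AP-1 and small MAF genes 10 rose and 1 fell, with a median of 1.10, and 2 fell under total scaling. Fosl1, an AP-1 subunit, had 292.9, 256.3 and 299.0 in homozygotes, against 2.67, 1.78 and 6.85 in wild type, and Maff, a small MAF partner of NRF2, had 736.2, 758.0 and 747.6 in homozygotes, against 144.2, 120.1 and 94.1 in wild type. Of 22 FGF and ERK feedback genes 8 rose and 6 fell, while 5 rose and 10 fell under total scaling. The ligand Fgf22 averaged 117.5 ± 20.9 in homozygotes and 0.867 ± 0.856 in wild type, and the ERK phosphatase Dusp5 rose 7.40-fold. The receptor Fgfr3 had 740.2, 579.6 and 394.3 in homozygotes, against 2468, 1436 and 1323 in wild type (-1.60, SE 0.28, adjusted p = 0.0022). Leaving out wild-type library 2 reduced the falls in this list to 2 and leaving out wild-type library 3 to 3, while Fgfr3 was called in both fits.

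Wnt genes changed in both directions, with 5 of 26 higher and 8 lower, and 3 higher without homozygote library 2 or wild-type library 2 or 3. Under total scaling 3 were higher and 11 lower. The epithelial ligand Wnt7b had 1467, 1115 and 1280.2 counts in homozygotes, against 253.7, 185.0 and 209.6 in wild type (2.57, SE 0.13, adjusted p = 2.2e-07). The secreted modulators Sfrp4 and Dkk2 were both lower: Sfrp4 averaged 19.99 ± 13.7 in homozygotes and 146.3 ± 24.6 in wild type, and Dkk2 50.7 ± 42.9 in homozygotes and 258.0 ± 61.1 in wild type. Of 24 BMP and TGF-beta genes 4 rose and 4 fell, while 2 rose and 6 fell under total scaling, and no called member changed by 2-fold. The rises in that list numbered 2 without homozygote library 1 or any 1 of the wild-type libraries. Among 17 clock genes 6 rose and 5 fell, while 4 rose and 7 fell under total scaling. The clock repressor Per1 had 4254, 3967 and 3085 in homozygotes, against 1167, 1029.9 and 942.1 in wild type, and the clock output factor Dbp 108.6, 75.9 and 112.7 in homozygotes, against 369.4, 312.2 and 314.0 in wild type. The labels give no time of day of collection. In the hypoxia list 5 of 14 genes rose and 2 fell, and adrenomedullin (Adm) had 1298, 843.8 and 1089.7 in homozygotes, against 82.8, 72.0 and 65.9 in wild type (14.3-fold, adjusted p = 7.9e-08).

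The 15 largest falls were ranked as the rises were, among named genes that did not overlap between groups. Several were in genes of mucosal or simple epithelium, namely Muc4, Muc20, Upk2, Krt7 and Cldn7. In a list of 24 such genes chosen after the values were seen, 12 were lower and 1 higher. Krt7, a keratin of simple epithelia, had 103.6, 17.7 and 26.6 counts in homozygotes, against 1803, 1613 and 1384 in wild type (-5.39, SE 0.60, adjusted p = 0.00021). The call of Cldn7, a claudin, was lost without homozygote library 2 (adjusted p = 0.0504). The membrane mucin Muc4 had 298.9, 7.89 and 45.1 in homozygotes, against 5923, 5156 and 3609 in wild type. The uroplakin Upk2 had 0.996, 0.986 and 0 in homozygotes, against 92.6, 104.1 and 58.2 in wild type. Homozygote library 1 was the highest homozygote for Krt7 and Muc4. The groups did not overlap for any of these 3 genes, which the ranking required. Of 182 genes that fell at least 4-fold with a mean of at least 50 in wild type, homozygote library 1 was the highest homozygote in 139. Krt8, the usual partner of Krt7, had 347.7, 15.8 and 29.7 in homozygotes, against 1204, 776.5 and 673.4 in wild type, and was not called (-3.93, SE 1.36, adjusted p = 0.059), but was called without homozygote library 1 (adjusted p = 0.012). Without homozygote library 1, 18 of the list were called lower. Summed counts of the 6 airway markers were 248, 9 and 3 in the homozygotes, against 125, 172 and 87 in wild type, and their part in these falls was not tested. Genes of motile cilia, grouped by name after the values were seen, were lower in 35 of 61 cases and higher in 2. The number of falls was 19 without wild-type library 1, 20 without wild-type library 2 and 21 without homozygote library 2, and Hydin, a ciliary gene with 38.9, 5.91 and 0 in homozygotes, against 179.8, 129.9 and 74.4 in wild type, was no longer called in these fits.

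The remaining large falls were of mixed kinds. Ifit1bl1, an interferon-stimulated gene, had 25.9, 5.91 and 3.07 counts in homozygotes, against 1185, 883.2 and 870.2 in wild type (-6.73, SE 0.89, adjusted p = 0.00055). Usp18, which removes the ubiquitin-like ISG15, had 4.98, 4.93 and 6.15 in homozygotes, against 126.4, 82.7 and 83.0 in wild type. In an interferon list of 30 genes chosen after the values were seen, 4 fell and the other 26 were not called, while 9 fell under total scaling. All 3 homozygotes lay below all 3 wild-type libraries in 18 of the 30, beside 25.5% over all genes tested. Without KEAP1-deficient library 2, 10 fell, and without KEAP1-deficient library 3 as many did. These libraries enter only through the shared spread and the filter on counts. Kera, a corneal keratan sulfate proteoglycan, had 8.97, 2.96 and 2.05 in homozygotes, against 170.9, 179.7 and 162.6 in wild type. Among the 15 largest falls, Bhmt, Afp and Akr1c6 are liver genes. Afp had 203.2, 12.8 and 10.2 in homozygotes, against 803.9, 580.8 and 4139.7 in wild type, with wild-type library 3 the highest. Its call was lost without homozygote library 2 (adjusted p = 0.052), and Bhmt was not called in 5 of the 9 fits that left out a library (adjusted p up to 0.09, without wild-type library 3). In the liver list of 15 genes, chosen after the values were seen, 7 were lower. That number was 2 without wild-type library 3, 3 without wild-type library 2, 2 without homozygote library 3 and 1 without homozygote library 2. Of 409 genes that fell at least 4-fold, 76 had over 2 times as many counts in wild-type library 3 as in each other wild-type library, and the part of liver RNA in these falls was not tested.

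Genes of DNA replication and of new chromatin fell. Of 69 histone genes 59 fell and 2 rose, with a median log2 fold change of -1.21. Of the 58 histones of the replication-dependent clusters, a subset drawn after the values were seen, 51 fell. H4c1 had 639.6, 461.3 and 561.2 counts in homozygotes, against 2024, 1824 and 1948 in wild type, and the linker histone H1f1 had 378.6, 271.1 and 239.6 in homozygotes, against 1423, 1328 and 1574 in wild type (-2.30, SE 0.23, adjusted p = 5.4e-05). Near-identical histone copies can share reads. The replication-independent H3f3a was not called (0.05, SE 0.06, adjusted p = 0.55), and H2aj, a histone variant found outside the replication set, had 1087, 1172 and 1187 in homozygotes, against 413.1, 322.0 and 355.1 in wild type (3.17-fold higher). Of 39 MCM and replication genes 21 fell and 2 rose (28 and 1 under total scaling). Among the falls was Gins2, part of the replicative helicase, which averaged 46.1 ± 8.44 in homozygotes and 134.6 ± 23.6 in wild type. These counts were close to those in each fit that left out a library (57 to 60 histones and 18 to 21 replication genes). Zinc finger genes named Zfp also fell more often than they rose, 107 against 37 of 372. That number of falls was 64 without wild-type library 2 and 70 without homozygote library 1, and under total scaling 187 fell and 23 rose.

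Connective tissue genes fell across collagens and their partners. Of 43 collagen genes 24 fell and 1 rose, and of 26 elastic fiber and proteoglycan genes 14 fell and 1 rose, while under total scaling 30 collagen and 18 elastic fiber and proteoglycan genes fell and none rose. Col1a1 had 75027, 62255 and 45229 counts in homozygotes, against 163356, 170258 and 159308 in wild type (-1.46, SE 0.26, adjusted p = 0.0023). Lumican (Lum) had 2584, 1430.2 and 2269.5 in homozygotes, against 8309, 9797 and 10365 in wild type (-2.22, SE 0.50, adjusted p = 0.012). Col6a6, a chain of collagen VI, averaged 556.0 ± 144.6 in homozygotes and 3001 ± 163.4 in wild type. The one rise was Col4a3, a basement membrane chain, at 1.87-fold (adjusted p = 0.019), whose call was lost without homozygote library 1 (adjusted p = 0.067), without wild-type library 1 (adjusted p = 0.055) and under total scaling (adjusted p = 0.053). Col3a1, Col1a2, Col6a3, fibronectin (Fn1), Sparc and fibrillin (Fbn1) were among the 12 largest losses in counts, with log2 fold changes of -1.47 (Col6a3) to -0.89 (Fn1). Of 24 imprinted and IGF growth genes 12 fell and the other 12 were not called. Igf2 had 32828, 32094 and 27156 in homozygotes, against 52313, 50869 and 50742 in wild type, and its binding protein Igfbp5 had 7521, 4890 and 8058 in homozygotes, against 19010.3, 23106 and 23555 in wild type (-1.71, SE 0.29, adjusted p = 0.0021). Fibroblast marker sums were lower in the homozygotes as given above. Those markers include Lum, Col1a1, Col1a2 and Col3a1, and these collagens made up most of each sum. The sums are therefore no separate measure of fibroblast number, whose part in these falls was not tested. The single largest loss in counts was in genes annotated Metazoa_SRP, a symbol shared by several loci for the RNA of the signal recognition particle, where 1 locus had 498829.9, 484719 and 658622 in homozygotes, against 899145, 978352 and 774547 in wild type.

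Muscle genes moved in both directions. Of 18 myogenesis and developmental muscle genes 7 fell and the other 11 were not called, while 13 fell under total scaling and 10 without homozygote library 2. Among the falls were the satellite cell factor Pax7 with 328.8, 424.8 and 383.0 counts in homozygotes, against 609.8, 602.1 and 571.6 in wild type, and myogenin (Myog) with 785.0, 1178 and 807.0 in homozygotes, against 1586, 1584 and 1505 in wild type. Among 10 striated muscle markers 2 rose and 3 fell, with 1 falling without homozygote library 2 or wild-type library 2 or 3, and 5 under total scaling. The risers were fast myosins of mature fibres: Myh1 had 48486, 47782 and 84124 in homozygotes, against 20495, 20841 and 22768 in wild type, and Myh2 had 1844, 1772 and 1659 in homozygotes, against 368.6, 714.2 and 675.1 in wild type. Homozygote library 3 was the highest for Myh1. Of the smooth muscle markers 3 fell, 1 did without any 1 of the other 5 libraries compared, and 8 did without homozygote library 2. Nuclear-encoded respiratory chain genes fell in 26 of 98 cases and 63 cases under total scaling, with 14 falls without wild-type library 2, 16 without wild-type library 3 and 16 without homozygote library 2. Mitochondrially encoded genes rose in 5 of 13 cases and the other 8 were not called, while 2 rose and 1 fell under total scaling. The rises numbered 8 without wild-type library 2 and 3 without wild-type library 3.

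Leukocyte markers changed in both directions. Of 5 mast cell markers 2 fell and of 5 eosinophil markers 1 fell (2 under total scaling), and no marker of either list rose. Leaving out 1 library at a time gave 0 to 4 mast cell and 0 to 2 eosinophil markers lower, both at 0 without wild-type library 1 and highest without homozygote library 3. Of 10 macrophage markers 3 rose and 1 fell, a fall that was not called when any 1 of the 6 libraries compared was left out, and 3 fell under total scaling. One of the rises was the hemoglobin scavenger receptor Cd163, with 636.6, 743.2 and 767.1 counts in homozygotes, against 197.6, 311.3 and 279.8 in wild type. Of 8 neutrophil markers 5 rose (3 without homozygote library 3 or wild-type library 1), among them the chemokine receptor Cxcr2 with 147.4, 115.3 and 135.2 in homozygotes, against 57.9, 52.5 and 74.4 in wild type. Their summed counts went the other way, with 1453, 219 and 365 in homozygotes, against 3044, 2506 and 2015 in wild type. In homozygote library 1 and in wild type most of that sum was lactoferrin (Ltf), also a gland product. Ltf had 1148, 8.87 and 29.7 in homozygotes, against 2916, 2404 and 1876 in wild type, and was not called (-5.07, SE 2.16, adjusted p = 0.11) but was called without homozygote library 1 (adjusted p = 0.027). The calprotectin subunits S100a8 and S100a9, made by neutrophils and by stressed keratinocytes, rose 22.1-fold and 35.1-fold. Of 9 T cell markers 1 rose and the other 8 were not called. Of 12 nerve and glia markers 2 rose and 3 fell, while 1 rose and 4 fell under total scaling. Their summed counts overlapped, with 7067, 4663 and 4546 in homozygotes, against 3884, 4138 and 4938 in wild type. A riser was Tubb3, a neuronal tubulin, with 1588, 1301 and 1485 in homozygotes, against 139.8, 143.2 and 148.9 in wild type (10.0-fold, adjusted p = 2.2e-08). Tubb3 was a sizeable part of the homozygote sums and does not stand for the list, in which more markers fell than rose.

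The spread among homozygote libraries was described for genes that wild type held steady. Genes with a mean of at least 100 counts and wild-type libraries within 0.5 log2 of each other were ranked, leaving out gene models and shared symbols. The widest spread was in Calca, which encodes calcitonin, with 777.1, 1.97 and 2.05 counts in homozygotes, against 0.890, 0.890 and 0.856 in wild type. The retrogene Tpm3-rs7 had 5.98, 2.96 and 845.9 in homozygotes, against 955.2, 866.3 and 883.9 in wild type, and the repair polymerase Polq 118.5, 0 and 35.8 in homozygotes, against 163.8, 137.9 and 178.0 in wild type. Slow myosin Myh7 had 1046, 4294 and 215.1 in homozygotes, against 773.6, 655.5 and 744.4 in wild type, and enteric actin Actg2 1716, 5821 and 577.6 in homozygotes, against 5293, 5332 and 5543 in wild type. For Actg2 and for the smooth muscle gene Cnn1, homozygote library 2 was near the wild-type values and libraries 1 and 3 below them, the order that the smooth muscle marker sums also had. Of the 12 genes of widest spread 4 were called, all lower. These values describe the spread and were given no test of their own.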

How the data were processed

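RNA-seq of esophagus tissue was compared between 3 NRF2 L30F homozygote and 3 wild-type pup libraries, which held 18791944 to 19489250 reads each. The deposited table gives log2(n + 4) of normalised read counts for 21106 genes. Per the submitters' processing notes the tools were Salmon, with no version, and the GRCm39 build. The log2 values the authors deposited were turned back into normalised counts, which were whole multiples of 1 read within 0.1 for values up to 1000 reads. Genes with a normalised count of at least 1 in 3 of 9 pup libraries were tested (21007). limma 3.58.1 (trend and robust settings, R 4.3.3, statmod 1.5.0) was fitted to log2(normalised count + 1), with 3 KEAP1-deficient libraries sharing the estimate of spread and with Benjamini-Hochberg adjustment over all genes tested. On simulated counts for this comparison (21106 genes), 95 of 100 planted 2-fold and 100 of 100 planted 4-fold changes were recovered, with 8 false calls. All simulated libraries shared the wild-type means apart from the planted changes, with known scaling and the same fixed spread for every gene. Changes were planted only in well-expressed genes. The 8 false calls are therefore no error rate for the real libraries. Python 3.11.15, pandas 2.3.3 and numpy 2.4.6 were used for lists and promoters.

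The compared groups follow the labels. The gene lists, the comparison and the rule for named genes were chosen with earlier results of these data known. The rule took called genes without overlap and a mean of at least 50 in the higher group (15 largest rises and falls), the 12 largest gains and losses in counts, up to 5 members a list, the 12 widest spreads among homozygotes and the 10 smallest adjusted p, with Nfe2l2, Keap1 and Nqo1. Gene models, pseudogenes, microRNA genes and symbols shared by several loci were left out of these rankings, except for gains and losses in counts. Larger changes in such genes were therefore counted but not named. Members of textbook importance that were not called (Areg, H3f3a, Krt8, Krt10, Ltf, Sox2) were also named. Chosen after their values were seen were Abcc6, Col4a3, Cyp2f2, Gstt1, H2aj, Ldha, Lrat, Pax7, Rarb, Slc6a9, Sprr2a3, Sqstm1 and Stra6, the library checks Alb, Atp4b, Ddx3y, Muc5ac, Tg and Xist, and the genes named for a promoter match. Alternatives changed the offset (4 or 0.1), the filter (none, or a mean of at least 10), the scaling, the test (limma-voom on recovered reads), the libraries in the fit, a replicate block and the call rule (at least 2-fold).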

Additional observations from a re-analysis of the deposited data

How the results depend on the processing

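Counts of called genes kept within 1.5 times of the reported 8225 (4632 higher, 3593 lower) in every alternative but 2. Requiring a 2-fold change left 3295 genes (1946 higher, 1349 lower), and scaling to total reads, chosen after the data were seen, gave 6433 lower. Leaving out 1 library at a time gave 6509 to 8328 called genes, 3978 to 4622 higher and 2531 to 3717 lower. The numbers in the labels did not pair the libraries: deviations of same-numbered homozygote and wild-type libraries correlated at -0.051, -0.022 and -0.077, within or below the range of differently numbered ones (-0.045 to 0.097). With the number as a replicate block 8060 genes were called (4563 higher, 3497 lower). Limits are the 3 libraries per genotype, RNA of bulk tissue and thyroid RNA in homozygote library 1. Liver RNA is a limit too, and not in wild-type library 3 alone. The 15 liver genes summed to 13785, 12675 and 66828 in wild type, against 8046, 1057 and 671 in homozygotes. Further limits are a genotype difference in summed normalised counts that scaling cannot settle, and genes near 0 counts, whose folds rest on few reads.

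No called gene named in the text changed direction. Of those not called, Keap1 (0.10) and H3f3a (0.05) changed sign under total scaling (-0.11 and -0.16). Others changed sign when 1 library was left out, over ranges of -0.056 to 0.23 for Keap1 (below 0 without homozygote library 3), -0.32 to 0.27 for Krt10 (above 0 without homozygote library 2 or wild-type library 2 or 3), -0.61 to 1.55 for Myh7 (below 0 without homozygote library 2), -4.74 to 0.43 for Ddx3y and -0.71 to 4.83 for Xist (both without homozygote library 3). The cause of these sign changes was not tested.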
